A study of Mus musculus with 2 samples.

Results

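The 8 genes followed here mark macrophages in the alternatively activated state or stand beside them as a reference: Chi3l3, Chi3l1, Arg1, Retnla, Mrc1, Mgl2 and the lysozymes Lyz2 and Lyz1. They were taken as the 8 rows of the deposited table whose gene symbol is one of these names, out of 38972 gene rows. Each row passed the filter for a measured gene in each library taken alone. RNA came from cells isolated as fibroblasts from mouse lungs, with 1 library from myoFoxf1 KO mice (αSMA-Cre-ERT2 with Foxf1fl/fl) and 1 from Foxf1fl/fl littermates without the Cre. Both carry the floxed Foxf1 alleles on a C57Bl/6 background, and the Cre is driven by the smooth muscle actin promoter, which is active in smooth muscle cells and myofibroblasts. In the study's protocol bleomycin, which injures and scars lung tissue, was dosed into the trachea weekly at 1 or 2 U/kg for 2 to 4 weeks, transgenic mice received tamoxifen at 40 mg/kg on days 2 to 4, and lungs were taken 1 week after the last dose. The labels do not give the dose or duration of these 2 libraries, the age or number of animals, or whether the cells were cultured, and the sample title names bleomycin only for the Foxf1fl/fl library.

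Alternative activation is the state that macrophages enter when interleukin 4 or interleukin 13 binds receptors built on Il4ra and activates the transcription factor STAT6. In mice the state is recognised by Arg1, the arginase that turns arginine into ornithine and urea, by the secreted proteins of Chi3l3 (Ym1) and Retnla (RELM-alpha, also called FIZZ1), and by the surface lectins of Mrc1 (the mannose receptor CD206) and Mgl2 (CD301b). Some of these genes are not particular to that state: Chi3l3 and Mrc1 are also high in resting alveolar macrophages of the mouse, Mgl2 is also carried by a class of dendritic cells, and Chi3l1 (the chitinase-like protein BRP-39) is also made by epithelium and neutrophils. Lysozyme is a general product of macrophages and neutrophils, and Lyz2 is also expressed by mouse type II alveolar cells.

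With 1 library per genotype there was no test between genotypes, and every interval below covers counting error only. The libraries held 15122824 reads in the myoFoxf1 KO and 16145959 in the Foxf1fl/fl. Foxf1, the targeted gene, had 49 reads in the myoFoxf1 KO library and 158 in the Foxf1fl/fl library. The 15 general macrophage markers summed to 12861 CPM (counts per library size after TMM scaling) in the myoFoxf1 KO library and 7153 CPM in the Foxf1fl/fl library, and none was at 0. The 15 fibroblast markers summed to 776 CPM in the myoFoxf1 KO and 1689 CPM in the Foxf1fl/fl, so the listed macrophage markers had the larger sum in both. These sums are not per length and depend on the genes chosen for each list, so they do not measure the share of each cell type. More cells of a type and more RNA per cell cannot be told apart in such bulk libraries. The part of the macrophage share in the results below was not tested beyond the ratios to macrophage reads that are given.

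Read per length, the 8 genes spanned more than 3 orders of magnitude within a library. Lyz2 stood at 17157 FPKM in the myoFoxf1 KO library, where it ranked 1 among 14455 measured genes, and at 9887 FPKM in the Foxf1fl/fl library, where it ranked 3. Chi3l3 ranked 4 in the myoFoxf1 KO library and 7 in the Foxf1fl/fl library. At the other end Arg1, at 4.44 FPKM in the myoFoxf1 KO library and 4.91 FPKM in the Foxf1fl/fl library, ranked 7202 and 7745 of the measured genes. In the myoFoxf1 KO library the order of FPKM was Lyz2, Chi3l3, Lyz1, Mrc1, Retnla, Mgl2, Chi3l1 and Arg1. The Foxf1fl/fl library had a different order in the middle: Retnla stood above Mrc1, and Chi3l1 above Mgl2. The counting intervals of neighbours in either order did not overlap, except those of Mgl2 (28.6 to 32.5 FPKM) and Chi3l1 (26.4 to 29.6 FPKM) in the myoFoxf1 KO library. Together the 8 genes took 3.59% of all reads in the myoFoxf1 KO library and 2.23% in the Foxf1fl/fl library.

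**Figure D1:**
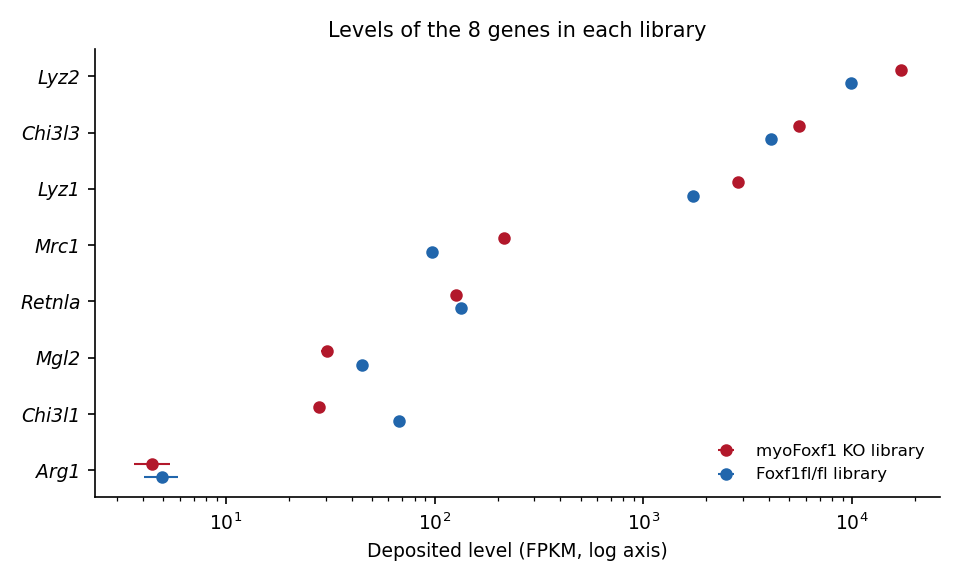
Deposited FPKM of the 8 genes on a log axis, with the myoFoxf1 KO library in red above the Foxf1fl/fl library in blue and bars for the exact Poisson 95% interval of the reads. Lyz2 lies highest (17157 FPKM in the myoFoxf1 KO and 9887 FPKM in the Foxf1fl/fl) and Arg1 lowest (4.44 and 4.91 FPKM), and Chi3l1, Mgl2, Retnla and Arg1 lie lower in the myoFoxf1 KO on this scale.

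Between the libraries, a gene counted as called if the ratio of its TMM-scaled CPM reached 2-fold in either direction with a 95% counting interval that left out 1. Of the 8 genes 3 were called higher in the myoFoxf1 KO library, Mrc1, Lyz2 and Lyz1, which is 37.5% of them, against 9.37% of all measured genes called higher. None of the 8 was called lower, against 14.2% of all measured genes. The median log2 ratio of the 8 was 0.50, and that of all measured genes 0.01. Of the 3 called, Lyz2 and Lyz1 are the reference genes, and Mrc1 alone of the other 6 was called. With Lyz1 summed with Lyz2, and Chi3l3 with its close copy Chi3l4, 2 of 7 were called higher, the lysozyme pair and Mrc1. Without the lysozymes the median of the other 6 was 0.20. The spread among the 8 ran between Mrc1 at 1.46 and Chi3l1 at -0.96, so the genes did not move as one group.

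**Figure D2:**
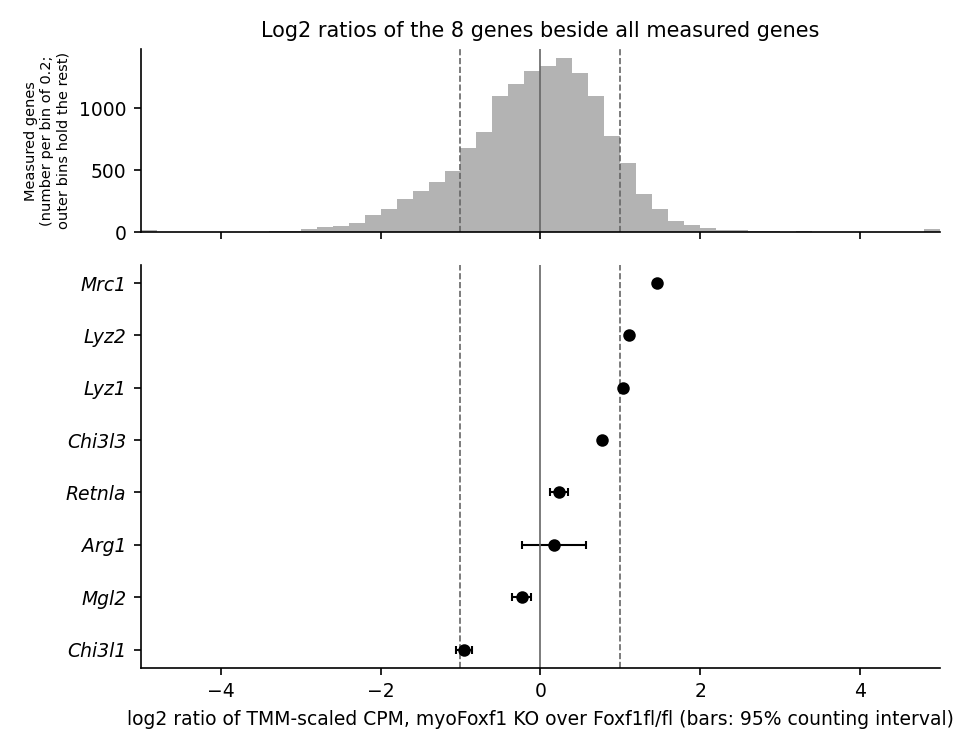
Log2 ratios of TMM-scaled CPM, myoFoxf1 KO over Foxf1fl/fl, for the 8 genes with their 95% counting intervals (lower panel), under the histogram of all 14455 measured genes (upper panel). Dashed lines mark a 2-fold difference, beyond which lie Mrc1 (1.46), Lyz2 (1.11) and Lyz1 (1.03), while Chi3l1 (-0.96) lies just inside on the other side.

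The lysozymes were the highest-reading pair. Lyz2 lies on the minus strand of GRCm38 at chr10:117277334-117282274 with 4 exons in GENCODE, and Lyz1 beside it at chr10:117287796-117292868, also with 4 exons. Lyz2 had 328490 reads (24231 CPM) in the myoFoxf1 KO library and 202101 reads (11221 CPM) in the Foxf1fl/fl library. Its log2 ratio was 1.11 (95% interval 1.10 to 1.12). Lyz1 had 54256 reads (4002 CPM) in the myoFoxf1 KO library and 35315 reads (1961 CPM) in the Foxf1fl/fl library, a log2 ratio of 1.03 (1.01 to 1.05). Both were high in both libraries and higher in the myoFoxf1 KO. Scaling by total reads alone put Lyz2 at 0.80 and Lyz1 at 0.71, without a call. There were 6.05 reads of Lyz2 for each of Lyz1 in the myoFoxf1 KO library and 5.72 in the Foxf1fl/fl library.

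The pair is close in sequence, which bears on how reads could be shared between them. Their coding sequences, 444 bases each, are identical at 422 positions, and 15.4% of all 50-base windows of the Lyz2 transcript also occur in that of Lyz1. The deposited counts were not whole numbers for most genes, and how reads that match both genes were divided is not given in the sources used here. With both genes summed the log2 ratio was 1.10 (1.09 to 1.11), with 382746 reads in the myoFoxf1 KO library and 237416 in the Foxf1fl/fl library. The first 150 coding bases of each are shown, with capitals at the 14 positions where they differ. Differences such as these, here and elsewhere in the transcripts, separate the reads of one gene from the other.
Lyz2: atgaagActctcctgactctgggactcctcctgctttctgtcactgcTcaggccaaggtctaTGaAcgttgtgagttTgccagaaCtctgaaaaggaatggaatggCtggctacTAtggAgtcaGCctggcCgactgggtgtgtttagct
Lyz1: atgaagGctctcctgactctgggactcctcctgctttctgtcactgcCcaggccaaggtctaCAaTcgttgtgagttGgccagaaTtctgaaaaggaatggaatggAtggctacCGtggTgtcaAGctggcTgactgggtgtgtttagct

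Since the lysozymes moved together, the 250 bases before their RefSeq starts in GRCm38.p6 are given (minus strand, chr10:117282273-117282522 for Lyz2 and chr10:117292869-117293118 for Lyz1). Aligned with gaps, they are identical at 80.6% of paired positions. Capitals mark GGAAGT or its reverse complement, the core that ETS factors such as the macrophage factor PU.1 bind, which was searched on both strands after the sequences had been read. It begins at position -100 from the start in both, and 19.8% of 32536 RefSeq promoter windows of this length hold it. Neither window held GAGGAA, a PU.1 motif that was searched in the same way. A match describes the letters only.
Lyz2: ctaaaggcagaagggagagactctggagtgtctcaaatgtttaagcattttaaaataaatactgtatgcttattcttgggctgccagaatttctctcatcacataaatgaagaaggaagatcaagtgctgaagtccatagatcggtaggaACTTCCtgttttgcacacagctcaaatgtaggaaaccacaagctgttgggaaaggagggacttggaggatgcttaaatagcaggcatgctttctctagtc
Lyz1: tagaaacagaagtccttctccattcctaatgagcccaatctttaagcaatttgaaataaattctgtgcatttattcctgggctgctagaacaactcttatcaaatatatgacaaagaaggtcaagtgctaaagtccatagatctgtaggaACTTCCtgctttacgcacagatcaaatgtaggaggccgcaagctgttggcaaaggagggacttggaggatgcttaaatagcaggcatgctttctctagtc

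The chitinase-like genes, whose proteins bind chitin-type sugars but do not cleave them, went opposite ways. Chi3l3 (chr3:106147554-106167564, minus strand, 11 exons) had 138080 reads (10185 CPM) in the myoFoxf1 KO library and 107638 reads (5976 CPM) in the Foxf1fl/fl library. Its log2 ratio of 0.77 (0.76 to 0.78) was short of 2-fold. Chi3l1 (chr1:134182176-134190181, plus strand, 10 exons) had 1188 reads (87.6 CPM) in the myoFoxf1 KO library and 3068 reads (170 CPM) in the Foxf1fl/fl library. Its log2 ratio of -0.96 (-1.06 to -0.86) was also short of a call by TMM, and reached a call, at -1.27, under total-read scaling. In FPKM, Chi3l1 stood at 28.0 in the myoFoxf1 KO library and 67.8 in the Foxf1fl/fl library.

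Chi3l3 has a close copy, Chi3l4 (Ym2), on the same strand of the same chromosome. Chi3l4 had 6444 reads (475 CPM) in the myoFoxf1 KO library and 5340 reads (296 CPM) in the Foxf1fl/fl library, a log2 ratio of 0.68 (0.63 to 0.73). Reads of Chi3l3 outnumbered those of Chi3l4 by 21.4 to 1 in the myoFoxf1 KO library and 20.2 to 1 in the Foxf1fl/fl library. The coding sequences are identical at 95.4% of paired positions, and 18.5% of 50-base windows of either transcript occur in the other, so reads from those windows cannot be assigned to one of them by sequence. Summed, the pair had a log2 ratio of 0.77 (0.75 to 0.78). The first 150 coding bases differ at only 3 positions, shown in capitals.
Chi3l3: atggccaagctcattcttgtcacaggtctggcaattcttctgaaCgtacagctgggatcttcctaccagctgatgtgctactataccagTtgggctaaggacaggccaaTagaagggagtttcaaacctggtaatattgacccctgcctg
Chi3l4: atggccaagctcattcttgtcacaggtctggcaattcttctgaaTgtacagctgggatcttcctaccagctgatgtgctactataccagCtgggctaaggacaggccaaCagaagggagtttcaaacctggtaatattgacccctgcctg

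Of the other genes in this family of glycosyl hydrolases (family 18), Ctbs, a lysosomal enzyme that cleaves chitobiose, was called higher at 1.32 (289 reads in the myoFoxf1 KO and 153 in the Foxf1fl/fl), and Ovgp1 was called lower at -1.40 on 8 reads in the myoFoxf1 KO and 29 in the Foxf1fl/fl. Chia, an acidic chitinase, had 301 reads in the myoFoxf1 KO library and 499 in the Foxf1fl/fl library, a ratio of -0.32. The chitinase Chit1 was at the edge of detection, with 3 reads in the myoFoxf1 KO and 4 in the Foxf1fl/fl. Of the 7 measured genes of the family, Chi3l3 and Chi3l1 among them, 1 was called higher and 1 lower, with a median of 0.09.

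The effector genes Arg1 and Retnla were close to equal in the libraries. Arg1 (chr10:24915208-24927470, minus strand, 8 exons) had 99 reads (7.30 CPM) in the myoFoxf1 KO library and 117 reads (6.50 CPM) in the Foxf1fl/fl library. Its log2 ratio was 0.17 with an interval that included 0 (-0.23 to 0.57), and it turned to -0.15 with total reads alone. The 95% interval covers changes of up to 1.48-fold higher and down to 0.851 of the Foxf1fl/fl level, for counting error alone. Retnla (chr16:48842552-48844461, plus strand, 4 exons) had 1143 reads (84.3 CPM) in the myoFoxf1 KO library and 1291 reads (71.7 CPM) in the Foxf1fl/fl library. Its log2 ratio was 0.23 (0.12 to 0.35) with TMM and -0.08 with total reads alone, so its direction rests on the scaling. In FPKM, Retnla stood at 126 in the myoFoxf1 KO library and 134 in the Foxf1fl/fl library.

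The RELM family otherwise held Retnlg, a gene of neutrophils in the mouse, with 257 reads in the myoFoxf1 KO library and 194 in the Foxf1fl/fl library, a log2 ratio of 0.81 without a call. Retnlb had no reads in either library, and Retn had 4 in the myoFoxf1 KO and 1 in the Foxf1fl/fl.

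Retnla is the member whose promoter window holds the STAT6 motif of the pathway, TTCNNNNGAA, searched on both strands. Among the 7 members with a RefSeq window it was the 1 match, and 5.89% of all windows hold it. The 250 bases before its RefSeq start (plus strand, chr16:48842359-48842608 in GRCm38.p6) are shown. Capitals mark the STAT6 motif, which begins at -145, and a stretch where GAGGAA, a PU.1 motif that 23.4% of windows hold, overlaps the ETS core GGAAGT. The C/EBP motif TTGNNCAA was in none of the 7 windows and in 5.61% of all. No window was listed for Arg1.
Retnla: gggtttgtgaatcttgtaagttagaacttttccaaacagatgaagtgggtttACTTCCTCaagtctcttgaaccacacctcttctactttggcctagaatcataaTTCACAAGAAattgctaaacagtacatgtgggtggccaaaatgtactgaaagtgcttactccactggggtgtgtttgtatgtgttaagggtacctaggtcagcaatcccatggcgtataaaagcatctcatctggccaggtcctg

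The lectin receptors differed from each other. Mrc1 (chr2:14229414-14332057, plus strand, 30 exons), an endocytic receptor for mannose-bearing glycoproteins and collagen, had 19259 reads (1421 CPM) in the myoFoxf1 KO library and 9324 reads (518 CPM) in the Foxf1fl/fl library. Its log2 ratio of 1.46 (1.42 to 1.49), or 2.74-fold, led the 8 genes, and 3.04% of measured genes had a higher one. Mrc1 was called with TMM and with total reads, and was short of a call at 0.89 after correction for GC content and transcript length. Mgl2 (chr11:70130329-70137550, plus strand, 9 exons), a receptor for galactose and N-acetylgalactosamine, had 966 reads (71.3 CPM) in the myoFoxf1 KO library and 1508 reads (83.7 CPM) in the Foxf1fl/fl library. Its log2 ratio was -0.23 (-0.35 to -0.12). Reads of Mrc1 outnumbered those of Mgl2 by 19.9 to 1 in the myoFoxf1 KO library and 6.18 to 1 in the Foxf1fl/fl library.

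Among relatives of these lectins, the endocytic receptor Ly75 (DEC-205) was called higher at 1.48, with 4349 reads in the myoFoxf1 KO and 2078 in the Foxf1fl/fl. The collagen receptor Mrc2 was called lower at -1.37, with 94 reads in the myoFoxf1 KO and 324 in the Foxf1fl/fl. The phospholipase receptor Pla2r1 was called lower at -1.12, with 32 reads in the myoFoxf1 KO and 93 in the Foxf1fl/fl. Clec10a, the closest relative of Mgl2, had 115 reads in the myoFoxf1 KO and 193 in the Foxf1fl/fl, a log2 ratio of -0.34. Counting Mrc1 and Mgl2, the family had 2 genes called higher and 2 lower of 7 measured, with a median of -0.23. After the GC and length correction Ly75 (0.97) and Mrc2 (-0.77) were no longer called.

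The promoter window of Mrc1 (plus strand, chr2:14229164-14229413 in GRCm38.p6) held 3 matches to GAGGAA and 1 to GGAAGT, all in capitals below. It is shown as the window with the most matches to GAGGAA among the 7.
Mrc1: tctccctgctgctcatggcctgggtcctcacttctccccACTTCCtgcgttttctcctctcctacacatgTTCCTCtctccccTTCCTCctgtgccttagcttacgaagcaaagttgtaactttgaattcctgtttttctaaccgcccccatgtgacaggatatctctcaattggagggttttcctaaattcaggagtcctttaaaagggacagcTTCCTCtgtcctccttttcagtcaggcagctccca

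Set against lysozyme, most of the genes were below 0. The log2 ratio of reads per Lyz2 read, myoFoxf1 KO over Foxf1fl/fl, does not depend on how libraries are scaled. Mrc1 alone of the other 7 was higher per Lyz2 read, at 0.35 (0.31 to 0.38). Lyz1 was at -0.08 (-0.10 to -0.06) and Chi3l3 at -0.34 (-0.36 to -0.33). Retnla was at -0.88 (-0.99 to -0.76) and Arg1 at -0.94 (-1.34 to -0.54). Mgl2 was at -1.34 (-1.46 to -1.23) and Chi3l1 at -2.07 (-2.17 to -1.97).

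The log2 ratio of Lyz2 (1.11) was above the median of the macrophage markers and below that of Itgam (1.51), Ctss (1.28), Ptprc (1.27) and Emr1 (1.23), and 2 further references were used. Per read of Cd68, a lysosomal membrane protein of macrophages whose log2 ratio of 0.78 is the median of the macrophage markers, Lyz2 was higher by 0.33 (0.28 to 0.37), Lyz1 by 0.24 (0.20 to 0.29) and Mrc1 by 0.67 (0.62 to 0.73). Chi3l3 did not differ per Cd68 read beyond counting error, at -0.02 (-0.06 to 0.03). Retnla (-0.55), Arg1 (-0.62, interval -1.02 to -0.21), Mgl2 (-1.02) and Chi3l1 (-1.74) were lower per Cd68 read. Per read of all 15 macrophage markers summed, the same 4 genes stood at -0.61, -0.68, -1.08 and -1.81, Chi3l3 at -0.08 and Mrc1 at 0.61. These ratios are of reads without the GC and length correction. With it, Mrc1 (0.89) was below Lyz2 (1.14), Cd68 (1.19) and the median of the macrophage markers (0.97). Lyz2 and Lyz1 (1.02) were then below Cd68, and Chi3l3 (0.54) was further below it. The direction of Mrc1 under each reference, and of Lyz2 and Lyz1 per Cd68 read, thus rests on leaving the correction out. So does the near equality of Chi3l3 and Cd68. A change of reference shifts all genes by 1 amount, so their order and the differences between them stay the same. Only their position against 0 depends on the reference.

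**Figure D3:**
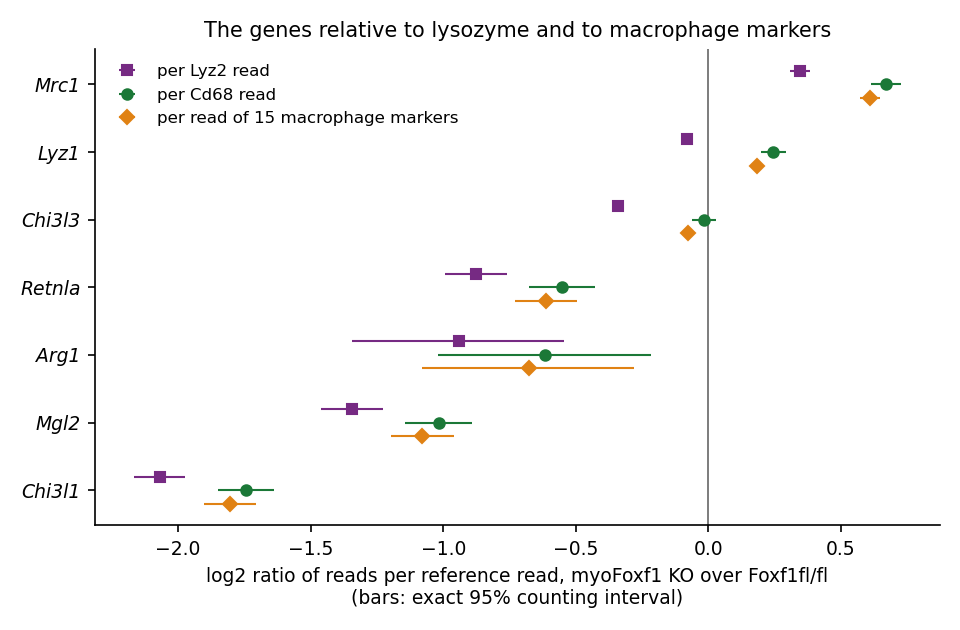
Log2 ratio, myoFoxf1 KO over Foxf1fl/fl, of reads of each gene per read of Lyz2 (squares), of Cd68 (circles) or of 15 summed macrophage markers (diamonds), with exact 95% counting intervals. Without the GC and length correction, which turns its direction, Mrc1 lies right of 0 under each reference (0.35, 0.67 and 0.61). Chi3l3, also without the correction, lies at -0.34 per Lyz2 read and at -0.02 and -0.08 under the other references. Retnla, Arg1, Mgl2 and Chi3l1 lie left of 0 under each.

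Of 13 measured genes of interleukin 4 and 13 signalling, 1 was called higher, the receptor chain Il13ra1 at 1.24, with 2039 reads in the myoFoxf1 KO and 1147 in the Foxf1fl/fl, and none was called lower. The call was lost after the GC and length correction (0.65) and with total reads alone (0.92). Total reads alone gave 0 called higher and 3 lower in this list, which were Il13 (-1.11), Cish (-1.24) and Socs1 (-1.22). The median was -0.07. Il4 had 61 reads in the myoFoxf1 KO library and 68 in the Foxf1fl/fl library. Il13 had 18 reads in the myoFoxf1 KO and 42 in the Foxf1fl/fl, a log2 ratio of -0.80 that was not called with TMM. Il4ra, the receptor chain shared by both cytokines, was at 0.15, and Stat6 at -0.15. Of 12 transcription factors of alternative activation 1 was called, Myc, which was lower at -1.45 (740 reads in the myoFoxf1 KO and 2687 in the Foxf1fl/fl), with a list median of -0.11. After the GC and length correction 1 was called higher, Cebpb (1.43, from -0.16 with TMM), and 1 lower, Myc (-1.08). The median of that list was then 0.15. The 4 measured genes of the type 2 alarmins and their receptors had a median of -0.61. Il33 (-0.62), its receptor Il1rl1 (-0.68) and Crlf2 (-0.59) were below 0 without a call. After the GC and length correction Il33 (-1.07) and Il1rl1 (-1.24) were called lower. Crlf2 turned to 0.87 with that correction, without a call, and the median of the 4 was then -0.10. Il17rb was called higher at 1.13 on 22 reads in the myoFoxf1 KO and 13 in the Foxf1fl/fl, and not with total reads alone (0.83).

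Of 21 other measured markers of alternative activation, 8 were called higher and 2 lower, with a median of 0.68. Il10, the anti-inflammatory cytokine, led at 2.11, with 1094 reads in the myoFoxf1 KO and 337 in the Foxf1fl/fl. The scavenger receptor Msr1 followed at 1.90, with 2767 reads in the myoFoxf1 KO and 983 in the Foxf1fl/fl. Next came the inhibitory receptor Cd200r1 at 1.55 and Slc7a2, which imports arginine, at 1.51. The lipoxygenase Alox15 was called lower at -1.42, with 23 reads in the myoFoxf1 KO and 83 in the Foxf1fl/fl. The lectin Cd209a was called lower at -1.14, with 72 reads in the myoFoxf1 KO and 212 in the Foxf1fl/fl. Total reads alone gave 7 higher and 4 lower. With the GC and length correction 5 were higher and 2 lower, and Slc7a2 (0.90) was among those that lost the call.

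Classical activation is the state driven by interferon gamma and microbial products. Of its 20 measured markers 6 were called higher, none was called lower and 14 were not called, with a median of 0.42. Il23a led at 2.62 on 53 reads in the myoFoxf1 KO and 11 in the Foxf1fl/fl, followed by the chemokines Cxcl9 (1.77) and Cxcl10 (1.57) and the cytokine Il1b (1.21). Nos2, the nitric oxide synthase that competes with arginase for arginine, had 19 reads in the myoFoxf1 KO library and 40 in the Foxf1fl/fl library, a log2 ratio of -0.65 without a call. Ccr7 (-0.77) and Irf5 (-0.53) were also below 0 without a call. With total reads alone 3 of the 20 were called higher and 1 lower (Ccr7, -1.09), and Il1b (0.89) lost its call.

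Around Arg1, 2 of 21 measured genes of arginine and polyamine metabolism were called higher and 1 lower, with a median of -0.07. With total reads alone there were 2 higher and 3 lower, as Oaz2 (-1.29) and Srm (-1.01) joined Prodh, and after the correction 1 and 1. Arg2, the mitochondrial arginase, was called higher at 1.45 (1.27 to 1.64), with 736 reads (54.3 CPM) in the myoFoxf1 KO library and 358 reads (19.9 CPM) in the Foxf1fl/fl library. Slc7a2 had 9071 reads in the myoFoxf1 KO and 4219 in the Foxf1fl/fl. Prodh, a proline oxidase, was called lower at -1.55 on 28 reads in the myoFoxf1 KO and 110 in the Foxf1fl/fl. Arg2 had more reads than Arg1 in both libraries.

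**Figure D4:**
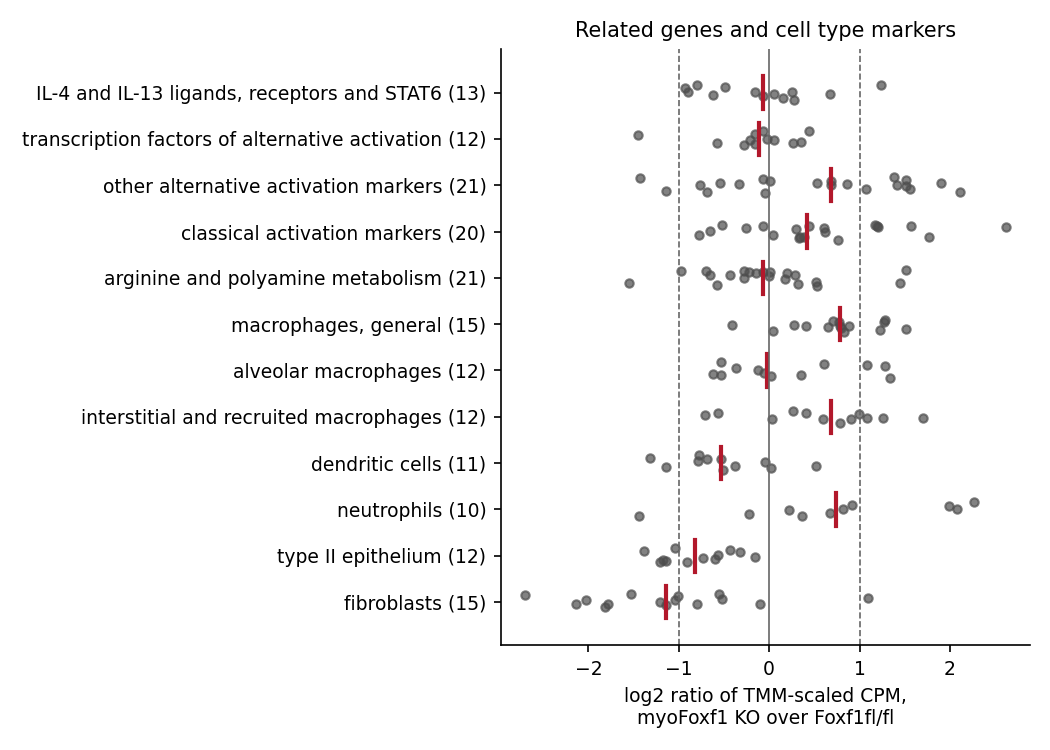
Log2 ratios of TMM-scaled CPM, myoFoxf1 KO over Foxf1fl/fl, of measured genes in the related lists and of cell type markers (points; number of measured genes in parentheses; red bars are medians). Medians are above 0 for the other alternative activation markers (0.68), classical activation (0.42) and general macrophage markers (0.78), and below 0 for dendritic cell (-0.53), type II epithelial (-0.82) and fibroblast markers (-1.14).

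Markers of the cells that could carry these transcripts differed between the libraries too. Of the 15 general macrophage markers 4 were called higher and none lower, against 7 higher after the GC and length correction and 1 with total reads alone. The most abundant were the protease Ctss at 4899 CPM in the myoFoxf1 KO and 2012 CPM in the Foxf1fl/fl, and the galectin Lgals3 at 2249 CPM in the myoFoxf1 KO and 1693 CPM in the Foxf1fl/fl. Alveolar macrophage markers had a median of -0.02, with 3 of 12 called higher (1 after the correction and 1 with total reads alone), and summed to 4272 CPM in the myoFoxf1 KO and 3010 CPM in the Foxf1fl/fl. In all, 3 genes led them in CPM: Atp6v0d2, at 1317 CPM in the myoFoxf1 KO and 520 CPM in the Foxf1fl/fl, Itgax, at 895 CPM in the myoFoxf1 KO and 421 CPM in the Foxf1fl/fl, and Ear2, at 676 CPM in the myoFoxf1 KO and 737 CPM in the Foxf1fl/fl. Ear2 had a log2 ratio of -0.12 and was the highest of them in the Foxf1fl/fl library. Markers of interstitial and recruited macrophages had a median of 0.69, with 3 of 12 called higher (6 after the correction, and 1 higher and 1 lower with total reads alone), and summed to 2381 CPM in the myoFoxf1 KO and 1516 CPM in the Foxf1fl/fl. Apoe, at 1457 CPM in the myoFoxf1 KO and 967 CPM in the Foxf1fl/fl, and C1qb, at 254 CPM in the myoFoxf1 KO and 120 CPM in the Foxf1fl/fl, led them.

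Dendritic cell markers, which bear on Mgl2, had a median of -0.53, with 2 of 11 called lower (1 after the correction and 5 with total reads alone), and summed to 6358 CPM in the myoFoxf1 KO library and 10999 CPM in the Foxf1fl/fl library. Cd74 led at 3462 CPM in the myoFoxf1 KO and 5997 CPM in the Foxf1fl/fl, followed by H2-Aa at 1630 CPM in the myoFoxf1 KO and 2349 CPM in the Foxf1fl/fl. H2-Ab1, called lower at -1.31, came next at 797 CPM in the myoFoxf1 KO and 1981 CPM in the Foxf1fl/fl. Cd74, H2-Aa and H2-Ab1 made up most of both sums. The other markers lay on both sides of 0: Cd209a (-1.14, called lower), Ccr7 (-0.77), Ccl22 (-0.69), Flt3 (-0.51), Clec9a (-0.37) and Itgae (-0.05) below, and Zbtb46 (0.02) and Xcr1 (0.51) above. Type II epithelial markers, which bear on the lysozymes and Chi3l1, had a median of -0.82, with 5 of 12 called lower (Cdh1 alone after the correction, and 7 with total reads alone), and summed to 4456 CPM in the myoFoxf1 KO and 9458 CPM in the Foxf1fl/fl. Sftpc, at 2071 CPM in the myoFoxf1 KO and 5413 CPM in the Foxf1fl/fl, and Sftpa1, at 866 CPM in the myoFoxf1 KO and 1283 CPM in the Foxf1fl/fl, led them. Neutrophil markers, which bear on the lysozymes and Chi3l1 as well, had a median of 0.74, with 3 of 10 called higher and 1 lower, and summed to 319 CPM in the myoFoxf1 KO and 171 CPM in the Foxf1fl/fl. S100a9, at 102 CPM in the myoFoxf1 KO and 25.8 CPM in the Foxf1fl/fl, and S100a8, at 76.0 CPM in the myoFoxf1 KO and 15.7 CPM in the Foxf1fl/fl, led them in the myoFoxf1 KO library. In the Foxf1fl/fl library Lcn2, Csf3r and Ltf stood above both: Lcn2 had 36.5 CPM in the myoFoxf1 KO and 42.8 CPM in the Foxf1fl/fl (-0.23), Csf3r 43.6 CPM in the myoFoxf1 KO and 34.0 CPM in the Foxf1fl/fl (0.36), and Ltf, called lower at -1.44, 10.3 CPM in the myoFoxf1 KO and 27.9 CPM in the Foxf1fl/fl. The neutrophil genes Elane (5 reads in the myoFoxf1 KO and 0 in the Foxf1fl/fl) and Ly6g (3 reads in the myoFoxf1 KO and 1 in the Foxf1fl/fl) were at the edge of detection. The part of each cell type in the levels of the 8 genes was not tested.

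For each of the 8 genes the listed genes with the nearest log2 ratio were found among 197 measured genes of these lists. The likeness rests on 1 ratio over 2 libraries. Mrc1 lay nearest to Arg2 (1.45) and Ly75 (1.48), Lyz2 to Fap (1.09) and Itgax (1.09), and Lyz1 to C1qc (0.99) and Cd163 (1.07). Chi3l3 lay nearest to Aif1 (0.77) and Asgr2 (0.77), and Chi3l1 to Oaz2 (-0.97) and Cish (-0.93). Arg1 lay nearest to Ass1 (0.17) and Il4ra (0.15), Retnla to Camp (0.22) and Il4 (0.25), and Mgl2 to Lcn2 and Aldh18a1 (both -0.23). Some of these neighbours had few reads and wide intervals. Camp had 15 reads in the myoFoxf1 KO and 17 in the Foxf1fl/fl (-0.88 to 1.32). Asgr2 had 26 reads in the myoFoxf1 KO and 20 in the Foxf1fl/fl (-0.11 to 1.71).

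How far each gene stood from 0 depended on the scale. TMM scaling placed every ratio 0.32 above total reads alone. Relative to the median of the fibroblast markers, all 8 genes were above 0, between Chi3l1 at 0.18 and Mrc1 at 2.59. Relative to the median of the macrophage markers, Mrc1, Lyz2 and Lyz1 were above 0 (0.67, 0.33 and 0.24) and the other 5 below it. Mrc1 stayed above 0 and had the highest ratio on each of these scales, except with the GC and length correction, where Lyz2 (1.14) and Lyz1 (1.02) were above it (0.89).

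The number of the 8 genes called was read against all measured genes under each rule. With total reads alone 1 was called higher and 1 lower, against backgrounds of 4.08% and 21.9%. With DESeq2 size factors 3 were called higher and 0 lower, against 9.51% and 14.1%. The FPKM scales used the 2-fold rule without an interval, over the 12948 genes with at least 1 FPKM in a library. With log2(FPKM + 1) 1 was higher and 1 lower, against 2.42% and 12.3%, and with log2(FPKM + 0.1) the counts were 1 and 1, against 3.88% and 20.7%. The GC and length correction left Lyz2 and Lyz1 called higher and none lower, against 5.51% and 10.6%. Relative to macrophage markers 0 were higher and 2 lower, against 1.58% and 40%, so the lower count is below its background. Relative to fibroblast markers 6 were higher and 0 lower, against 56.7% and 1.76%. With a prior count of 2 there were 3 higher and 0 lower, against 9.17% and 13.9%. A 1.5-fold rule gave 4 higher and 1 lower, against 22.1% and 23.5%, and a 4-fold rule 0 and 0, against 1.2% and 2.75%. An interval excluding 2-fold gave 3 and 0, against 4.94% and 6.45%. With no filter there were 3 and 0, against 7.26% and 10.6%, and with at least 10 CPM 3 and 0, against 9.37% and 9.41%.

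**Figure D5:**
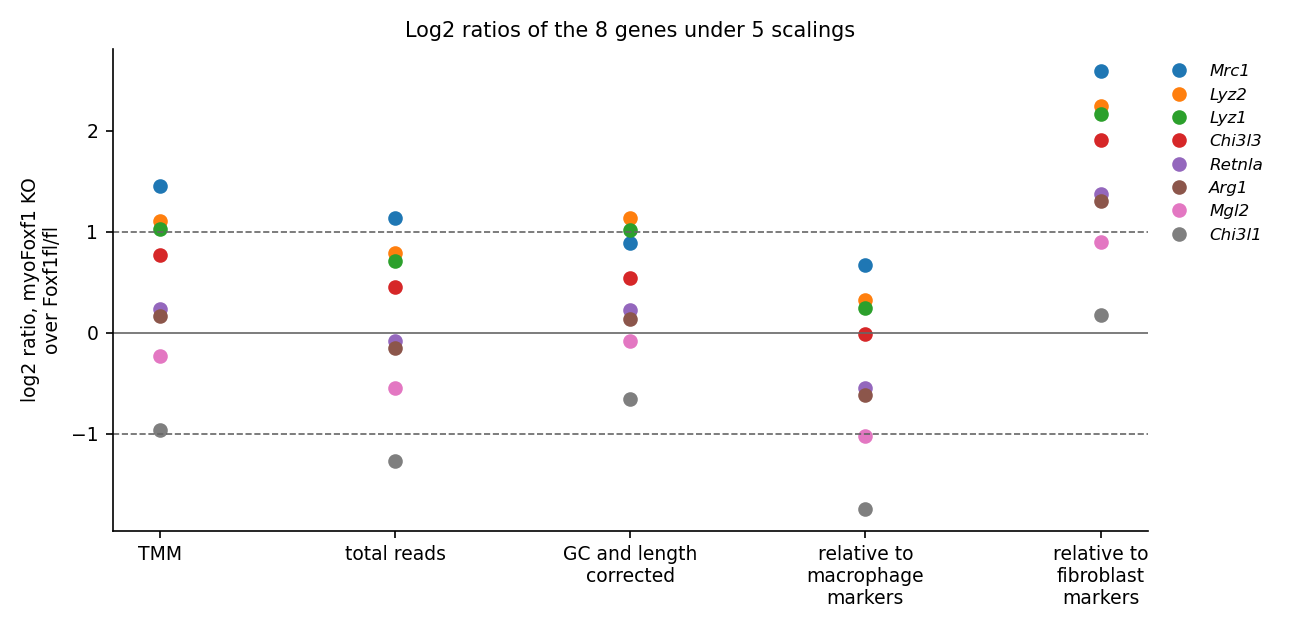
Log2 ratios, myoFoxf1 KO over Foxf1fl/fl, of the 8 genes under 5 scalings, with dashed lines at a 2-fold difference. Chi3l1 is lowest under each (-0.96 with TMM and 0.18 relative to fibroblast markers), and Arg1 and Retnla are above 0 with TMM and below 0 with total reads alone or relative to macrophage markers.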

How the data were processed

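Per the labels' protocols, the RNA was sequenced after Nextera XT preparation, which does not mark strand. The authors deposited 1 table holding, for each library, estimated read counts by gene beside FPKM. TopHat, Cufflinks, GRCm38 and mm10 are listed, without roles or versions, per the submitters' processing notes. Among genes with reads, the deposited estimated counts had a fractional part in 73.3% (myoFoxf1 KO) and 76.1% (Foxf1fl/fl), and were rounded here. The deposited FPKM followed the estimated counts at a gene length common to both libraries (100% of 14882 genes within 1%), so they are no independent measurement.

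TMM scaling used edgeR 4.0.16 (R 4.3.3), with no replicates and so no test. Log2 ratios used a prior count of 0.5, scaled to library size, and Clopper-Pearson 95% intervals (scipy 1.17.1). A gene was measured if it reached 1 CPM in a library and 20 reads over both (14455 genes). Ratios to reference reads have exact conditional intervals of the odds ratio (Fisher). Intervals cover counting error only, because each genotype has 1 library. Reads carry no molecular identifiers, so copies of the same molecule count as separate reads, and the intervals can be too narrow. The calculation was tested on simulated counts with counting error only. They held no spread between animals and no copied molecules, so that test bears on the arithmetic alone. All 8 identifiers were found in GENCODE M21 (GRCm38), used for exons and coding sequence. RefSeq promoter windows (GRCm38.p6) were matched by symbol or synonym for 7 of the 8. The 8 genes and 24 lists (228 symbols, 1 without a row) were chosen with earlier results of these data known. From each related list the called genes with the largest ratios (up to 4) were named, or the most abundant where none was called, and from each marker list the most abundant. Some genes outside this rule were named after their values were seen: Il4, Il13, Il4ra, Stat6, Nos2, Chia, Chit1, Retn, Retnlb, Clec10a, Cpa3, Cma1, Epx, Prg2, Mcpt4, Tpsb2, Cd8a, Il33, Il1rl1, Crlf2, Cish, Socs1, Cebpb, Ccr7, Irf5, Oaz2, Srm, Itgam, Ptprc, Emr1, Ear2, Cdh1, Lcn2, Csf3r, Ltf, Elane, Ly6g, H2-Ab1, Ccl22, Flt3, Clec9a, Itgae, Zbtb46 and Xcr1. Alternatives were total reads, DESeq2 1.42.0 size factors, log2 of FPKM plus 1 or 0.1, a lowess correction (span 0.3, statsmodels 0.14.6) for GC content and length, marker-relative scales, other folds, filters and prior counts.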

Additional observations from a re-analysis of the deposited data

How the results depend on the processing

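With 1 library per genotype no replicate could be left out, and no precision between animals can be had. No paired analysis was possible because each genotype has 1 library. The 3 calls (Mrc1, Lyz2, Lyz1) were also made with DESeq2 size factors, a prior count of 2, no filter, at least 10 CPM, and an interval that excludes 2-fold. Mrc1 was the 1 gene called higher with total reads alone, with log2(FPKM + 1) and with log2(FPKM + 0.1), and Chi3l1 was then the 1 called lower. These scales put the median of the 8 at 0.19 each, and total reads put that of all measured genes at -0.31. With the GC and length correction the median of the 8 was 0.38 and 2 were called. Relative to macrophage markers the median was -0.28, with 0 called higher and 2 lower (Chi3l1 and Mgl2). Relative to fibroblast markers it was 1.64, with 6 called higher. These last differences follow from the shift by a marker median (0.78 or -1.14). A 4-fold rule left 0 called higher, and a 1.5-fold rule called 1 lower (Chi3l1). Per Lyz2 read, Lyz1 was at -0.08, and it turned to 0.24 per Cd68 read and 0.18 per read of the summed macrophage markers. These ratios are without the GC and length correction, after which Lyz1 (1.02) was below Cd68 (1.19). Arg1, with 99 reads in the myoFoxf1 KO and 117 in the Foxf1fl/fl, is the member whose depth limits its ratio most.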

Other observations

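Markers of further cell types in the lists moved in both directions. All 7 measured club and goblet cell markers were called lower in the myoFoxf1 KO library, with a median log2 ratio of -1.92. Scgb1a1 led them at 1887 CPM in the myoFoxf1 KO and 7161 CPM in the Foxf1fl/fl, followed by Cyp2f2 at 184 CPM in the myoFoxf1 KO and 802 CPM in the Foxf1fl/fl. Among eosinophil and mast cell markers 2 of 5 measured were called higher, both mast cell proteases: Cpa3 at 3.32, with 177 reads in the myoFoxf1 KO and 23 in the Foxf1fl/fl, and Cma1 at 1.82, with 70 reads in the myoFoxf1 KO and 26 in the Foxf1fl/fl. Among other mast cell proteases, Mcpt4 had 8 reads in the myoFoxf1 KO and 16 in the Foxf1fl/fl, and Tpsb2 had 12 in each, both below the filter. The eosinophil granule genes Epx (2 reads in each library) and Prg2 (6 in the myoFoxf1 KO and 18 in the Foxf1fl/fl) were below the filter. The most abundant gene of that list, Siglec5, which alveolar macrophages of the mouse also carry, stood at 191 CPM in the myoFoxf1 KO and 126 CPM in the Foxf1fl/fl, and Kit at 16.2 CPM in the myoFoxf1 KO and 22.4 CPM in the Foxf1fl/fl. Among lymphoid markers 2 of 10 were called higher and 1 lower, with a median of -0.01, against 1 higher and 3 lower with total reads alone. Il7r (134 CPM in the myoFoxf1 KO and 60.0 CPM in the Foxf1fl/fl) and Rora (96.0 CPM in the myoFoxf1 KO and 53.0 CPM in the Foxf1fl/fl) were the most abundant, and Cd8a was higher at 2.18 on 114 reads in the myoFoxf1 KO and 33 in the Foxf1fl/fl.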
